A study of Arabidopsis thaliana with 11 samples.

Results

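Jacalin-related lectins (JAL) and the beta-glucosidase PYK10 were followed in shoots of Arabidopsis thaliana seedlings. The members were all probe sets whose gene symbol in the platform's annotation is JAL followed by a number, and the probe set of PYK10. This gave 6 of 19371 plant probe sets: JAL22 (AT2G39310), JAL23 (AT2G39330), JAL31 (AT3G16430), JAL33 (AT3G16450), JAL34 (AT3G16460) and PYK10 (AT3G09260), with 1 probe set each. Only the 11598 plant probe sets with a gene symbol could be members, so other lectins of the family were not analysed here.

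The series holds 11 arrays, 1 for each pool of about 24 seedlings. Plants carrying 35S::AtNF-YB1 were represented by the independent homozygous lines 3 and 6, and plants carrying 35S::CBF4 by the independent lines 10 and 19, with 2 arrays per line. The series text puts a further number beside CBF4 line 19 that no sample label carries, and lines are named here as the sample labels give them. Wild type Col-0 had 3 arrays. NF-Y factors, to which AtNF-YB1 belongs, bind CCAAT boxes, and CBF4 belongs to the CBF/DREB1 factors that act on promoters of cold- and drought-responsive genes. The 35S promoter is active in most cells of the plant, so neither construct marks a cell type. The seedlings of all groups were harvested at 14 days, after sterile growth on vertical plates of MS medium with 24 h of light each day, and their shoots were taken without the roots.

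PYK10 is a beta-glucosidase stored in ER bodies, spindle-shaped compartments of the endoplasmic reticulum that are abundant in roots and in the epidermis of young seedlings. When cells are broken, PYK10 meets lectins of the jacalin type, which bind carbohydrates through a jacalin domain, and large complexes form. Some of these lectins favour the growth of the complexes and others limit it. In RefSeq TAIR10.1 JAL33 and JAL34 are direct neighbours, JAL31 is separated from JAL33 by 2 protein-coding genes, and JAL22 is separated from JAL23 by 1, AT2G39320. The lectins of such clusters can be similar in sequence, and cross-hybridization between their probe sets was not tested.

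All levels below are log2 of quantile-normalized probe set intensity, and differences are log2 differences ± SE with p-values from limma, Benjamini-Hochberg adjusted over all probe sets. The median deposited intensity ran from 9.235 to 22.7 between arrays. All 6 members were above the median brightness of 4.02 log2, and each was above the 95th percentile of the spike controls on 11 of 11 arrays, as were 60.9% of all plant values. Of the shoot marker genes 6 of 10 were measured under a name, all bright, with a summed intensity of 9946 to 10620 in wild type, 10380 to 10880 in AtNF-YB1 and 10360 to 10770 in CBF4 shoots. Of the root markers only EXPA7 and AT5G17820 of 14 were measured. Their summed intensity was 4.92 to 11.4 in wild type, 3.93 to 8.51 in AtNF-YB1 and 3.81 to 7.80 in CBF4 shoots, where 3.81 is the value with both at the floor. AT5G17820 was above the floor on the 3 wild type arrays, at 2.87, 2.37 and 0.98 log2, and at the floor on the 8 transgenic arrays. Its difference from wild type, of a size set by the floor, was −1.15 ± 0.41 in both the CBF4 and the AtNF-YB1 lines (limma adjusted p = 0.683 and 1). Without wild type replicate 3 this root marker was lower by 1.67 ± 0.13 in both (limma adjusted p = 0.0216 and 0.0402). The floor leaves no spread among its transgenic arrays, so this SE and these p-values rest on the dim values of wild type replicates 1 and 2. EXPA7 was then at −0.07 ± 0.68 and 0.51 ± 0.68 (adjusted p = 1 for both). The part of root tissue in the results on the members was not tested.

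The array labelled wild type replicate 3 carried more signal than the other wild type arrays on the vector probe sets named for NOS and E9. The probe set named for NOS, a terminator used in plant vectors, read 52.3 deposited intensity units on it, against 0.498 and −0.437 on wild type replicates 1 and 2 and 154 to 705 on the transgenic arrays. The probe set named for E9, another such terminator, read 1164 units on it, the highest of all arrays. It read 137 and 88.3 on the other wild type arrays, 504.5 to 591 on the CBF4 arrays and 2.195 to 112 on the AtNF-YB1 arrays. The remaining vector probe set, named for CAMV 35S, did not set the array apart. It read 1.81 units there, −2.23 and 0.782 on the other wild type arrays and −3.19 to 5.11 on the transgenic arrays. The comparisons of the members with wild type are therefore given with and without wild type replicate 3.

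PYK10 itself, the enzyme of the complex, varied among the wild type arrays about as widely as across the whole series. Its levels were 8.88, 8.25 and 7.66 on wild type replicates 1, 2 and 3. AtNF-YB1 line 3 gave 8.69 and 8.11, and line 6 gave 8.45 and 8.51. CBF4 line 10 gave 8.69 and 7.93, and line 19 gave 7.58 and 7.80. The order of the group means was AtNF-YB1 line 6, AtNF-YB1 line 3, CBF4 line 10, wild type and CBF4 line 19, and all neighbours in that order overlapped. The CBF4 lines differed from wild type by −0.26 ± 0.33 (95% confidence interval −1.05 to 0.53, 4 arrays against 3) and the AtNF-YB1 lines by 0.18 ± 0.33 (−0.61 to 0.97), both with limma adjusted p = 1. Without wild type replicate 3 these differences were −0.56 ± 0.30 (adjusted p = 0.857) and −0.12 ± 0.30 (adjusted p = 1), and without wild type replicate 1 the CBF4 difference was 0.05 ± 0.30. In whole shoots, fewer cells holding PYK10 and less of its RNA per cell cannot be told apart, here and for the other genes.

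**Figure D1:**
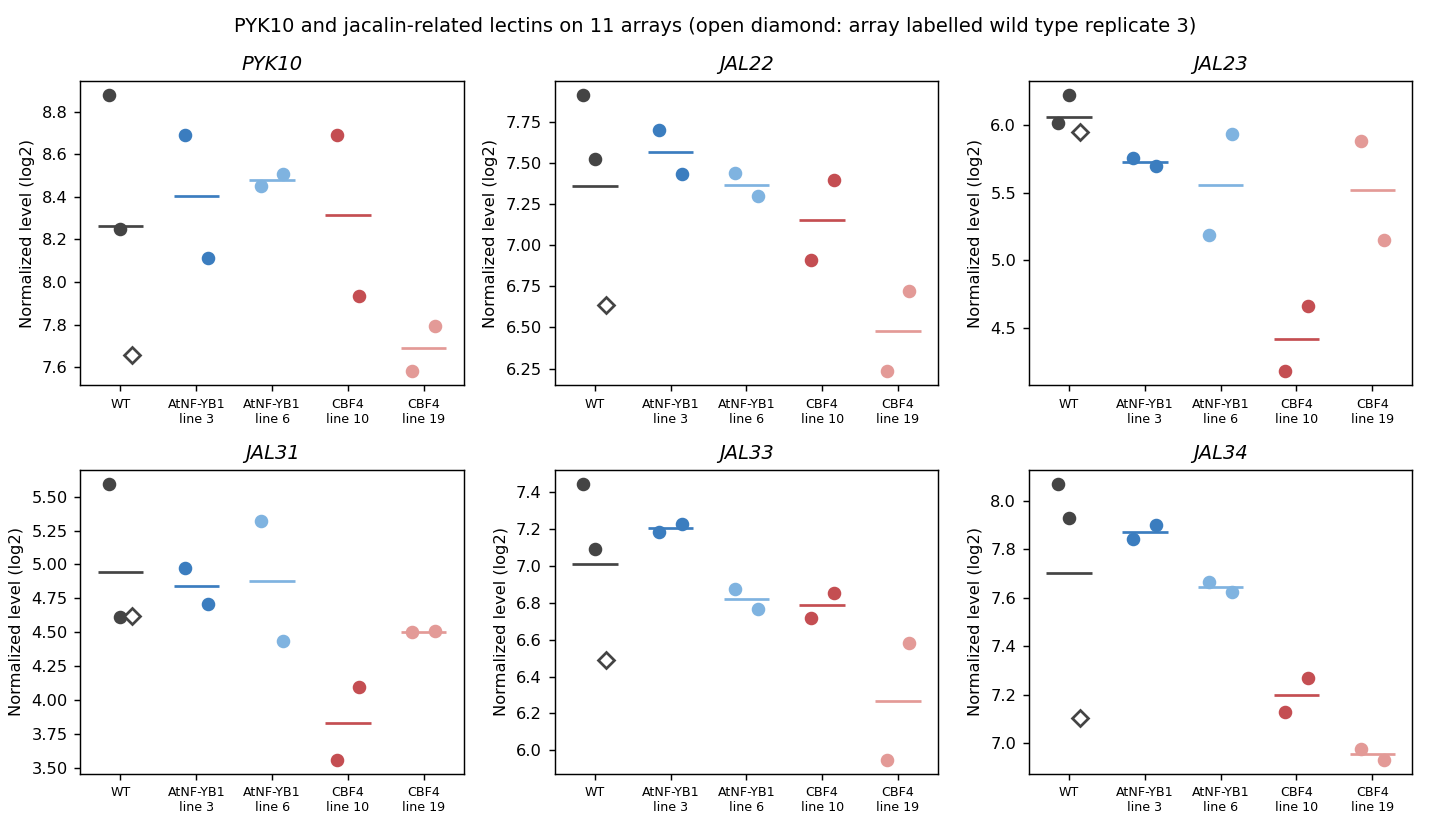
Normalized level (log2) of PYK10 and the 5 lectins, 1 point per array, by wild type and line, with bars at the group means; each panel has its own vertical scale. For JAL34 the 4 CBF4 arrays lie between 6.93 and 7.27, below the 4 AtNF-YB1 arrays, and the open diamond, wild type replicate 3, lies among the CBF4 arrays at 7.10.

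The lectin JAL34 was the only member whose arrays separated the 2 constructs. Its levels were 7.13 and 7.27 in CBF4 line 10 and 6.98 and 6.93 in line 19. AtNF-YB1 line 3 gave 7.84 and 7.90, and line 6 gave 7.66 and 7.62. All 4 CBF4 arrays were below all 4 AtNF-YB1 arrays, an arrangement found for 1 of the 6 members and for 2.48% of plant probe sets. Wild type replicates 1 and 2 gave 8.07 and 7.93, above every other array, and replicate 3 gave 7.10, within the range of the CBF4 arrays. The group means ran from AtNF-YB1 line 3 through wild type, AtNF-YB1 line 6 and CBF4 line 10 to CBF4 line 19, and the first 3 overlapped as neighbours while each CBF4 line stood apart from the group before it.

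With all arrays, JAL34 was 0.62 log2 below wild type in the CBF4 lines (−0.62 ± 0.22, limma adjusted p = 0.674) and did not pass. Without wild type replicate 3 it fell by 0.92 ± 0.06, a 1.89-fold difference (limma adjusted p = 0.0134, 4 arrays against 2). It then ranked at position 10 of all plant probe sets by p, and was the only one of the 6 members that passed, where 0.155% of plant probe sets passed. Both lines carried the difference, at −0.80 ± 0.07 in line 10 (adjusted p = 0.0396, a test that 0.129% of plant probe sets passed) and −1.04 ± 0.07 in line 19 (adjusted p = 0.0137, passed by 0.145%). Between the CBF4 and AtNF-YB1 lines, which holds no wild type array on either side, the difference was −0.68 ± 0.21 with all arrays (adjusted p = 0.416) and −0.68 ± 0.05 without wild type replicate 3 (adjusted p = 0.0149, passed by 0.305%). The size was the same in both fits. These SE and p-values measure the spread within groups and do not include the variation between lines of a construct. The SE differed because the wild type spread of JAL34 enters the variance that all groups share. With the replicate number as a block, which also takes wild type replicate 3 out of the contrasts, the estimates were −0.92 ± 0.07 and −0.68 ± 0.05 and neither passed (adjusted p = 0.0644 against wild type and 0.0659 against AtNF-YB1). Without wild type replicate 3 the root marker AT5G17820 was also lower against wild type, in a test shaped by the floor. Between the constructs it was at the floor on all arrays and could show no difference. EXPA7 was there at −0.58 ± 0.56 without wild type replicate 3 (limma adjusted p = 0.88). The part of root tissue in either contrast was not tested.

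JAL33 is the direct neighbour of JAL34, and its CBF4 and AtNF-YB1 arrays overlapped. Wild type gave 7.45, 7.09 and 6.49, AtNF-YB1 line 3 gave 7.19 and 7.23, and line 6 gave 6.88 and 6.77. CBF4 line 10 gave 6.72 and 6.85 and line 19 gave 5.95 and 6.58. The second array of CBF4 line 10 was above the second of AtNF-YB1 line 6, and wild type replicate 3 again lay among the CBF4 arrays. The CBF4 difference from wild type was −0.48 ± 0.25 (limma adjusted p = 0.925), and −0.74 ± 0.19 without wild type replicate 3 (adjusted p = 0.399). From the AtNF-YB1 lines it was −0.49 ± 0.23 (adjusted p = 0.693). In the order AtNF-YB1 line 3, wild type, AtNF-YB1 line 6, CBF4 line 10 and CBF4 line 19, only the last pair of neighbours did not overlap.

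JAL31, a relative of the lectin first described as PYK10-binding protein 1, was lowest in CBF4 line 10. Its levels were 3.56 and 4.10 in that line, 4.50 and 4.51 in line 19, and 5.60, 4.62 and 4.62 in wild type. AtNF-YB1 line 3 gave 4.97 and 4.71, and line 6 gave 5.32 and 4.44. All 4 CBF4 arrays were below all 3 wild type arrays, but the line 19 arrays missed overlap with wild type replicate 2 by a small margin and lay above 1 AtNF-YB1 array. The difference from wild type was −0.78 ± 0.33 (limma adjusted p = 0.813). It was −0.93 ± 0.37 without wild type replicate 3 (adjusted p = 0.714). The order of means was wild type, AtNF-YB1 line 6, AtNF-YB1 line 3, CBF4 line 19 and CBF4 line 10, with each CBF4 line apart from the group before it.

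JAL23 had the largest estimate of the members against wild type. The 3 wild type arrays lay close together, at 6.02, 6.23 and 5.95. CBF4 line 10 gave 4.18 and 4.66, and line 19 gave 5.88 and 5.15. AtNF-YB1 line 3 gave 5.76 and 5.70, and line 6 gave 5.19 and 5.93. Every transgenic array was below every wild type array, but by a small margin. The highest were 5.93 in AtNF-YB1 line 6 and 5.88 in CBF4 line 19, against 5.95 in wild type replicate 3. Unlike for JAL34, wild type replicate 3 was with the other wild type arrays. The CBF4 lines were 2.14-fold lower (−1.10 ± 0.25, limma adjusted p = 0.324), and the difference was −1.15 ± 0.30 without wild type replicate 3 (adjusted p = 0.4). The AtNF-YB1 lines were at −0.42 ± 0.25 (adjusted p = 1). In line 10 alone the difference was −1.64 ± 0.30 (limma adjusted p = 0.26), and in line 19 alone −0.55 ± 0.30 (adjusted p = 0.97), where 0.129% of plant probe sets passed in each line. The line 10 difference passed when dim probe sets were left out before the fit (−1.64 ± 0.27, limma adjusted p = 0.0402, where 0.392% passed). That fit had fewer tests to adjust for and also a smaller SE. In the order wild type, AtNF-YB1 line 3, AtNF-YB1 line 6, CBF4 line 19 and CBF4 line 10, the first and the last pair of neighbours stood apart.

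JAL22, which lies next to JAL23 but for AT2G39320, did not share its pattern. Wild type gave 7.91, 7.52 and 6.63, AtNF-YB1 line 3 gave 7.70 and 7.43, and line 6 gave 7.44 and 7.30. CBF4 line 10 gave 6.91 and 7.39, and line 19 gave 6.23 and 6.72. Its lowest arrays were the pair of line 19, with wild type replicate 3 between them, and in the order of means only CBF4 line 19 stood apart from its neighbour, CBF4 line 10. The CBF4 difference from wild type was −0.54 ± 0.32 (limma adjusted p = 0.991), and −0.90 ± 0.22 without wild type replicate 3 (adjusted p = 0.345). The gene between the pair, AT2G39320, which has no lectin name in the annotation, was at −0.32 ± 0.32 in the CBF4 lines against wild type (adjusted p = 1). Its line 10 arrays were below its line 19 arrays, by −1.10 ± 0.42 (adjusted p = 1), and line 10 was at −0.87 ± 0.39 and line 19 at 0.23 ± 0.39 from wild type (adjusted p = 1 for both).

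Counted together, 6 of 6 members had a lower estimate in the CBF4 lines than in wild type, with a median of −0.58 log2, where the median over all plant probe sets was 0 and 51.1% of the brighter probe sets (those reaching the median brightness) had an estimate below 0. None of the 6 passed at an adjusted p of 0.05, where 0.232% of all plant probe sets did. JAL23 and JAL34 reached an unadjusted limma p below 0.05, 2 of 6 members, against 3.32% of plant probe sets that did so in the lower direction. Both JAL23 and JAL31 had all CBF4 arrays below all wild type arrays, 2 of 6 members against 2.93%. Without wild type replicate 3 the median of the members was −0.91, 5 of 6 had an unadjusted p below 0.05 in the lower direction (3.87% of plant probe sets), PYK10 being the exception, and 5 of 6 had no overlap (6.83%). The members come from clusters of related genes and were measured on the same arrays, so they are not independent. They were also chosen with earlier results of these data known. Their counts beside the shares of all plant probe sets, here and below, are therefore a description and not a test.

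**Figure D2:**
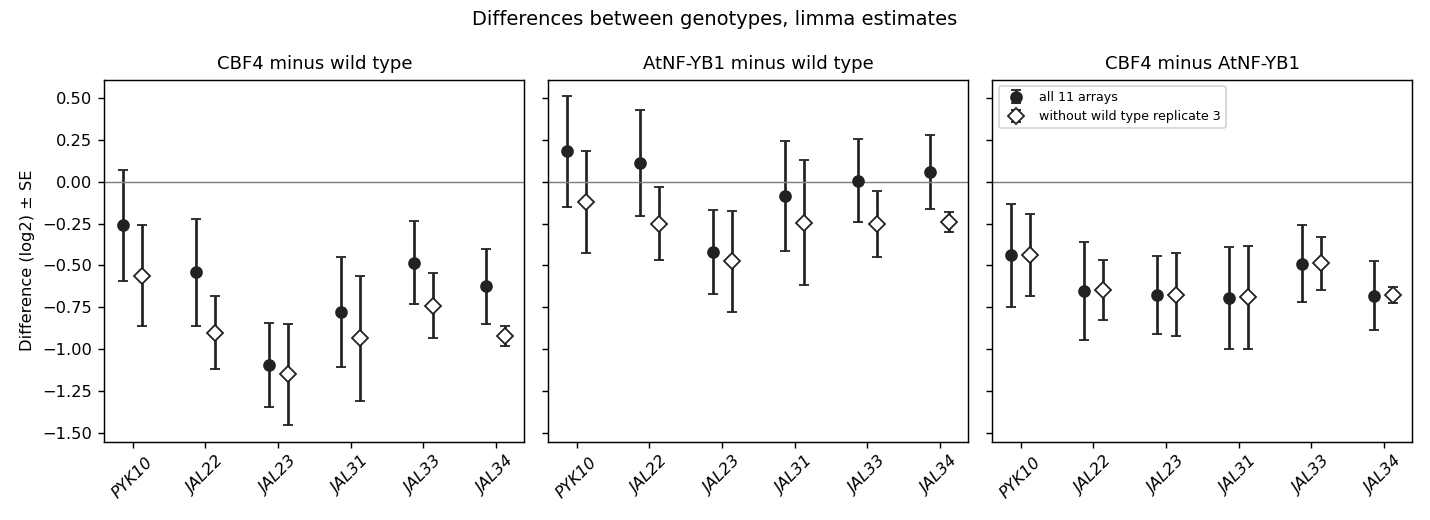
Difference (log2) ± SE of each member in the 3 comparisons of genotypes, with all 11 arrays (filled circles) and without wild type replicate 3 (open diamonds). In the comparison of CBF4 with AtNF-YB1 all 6 estimates lie between −0.69 and −0.44 and hardly move, while the AtNF-YB1 estimates against wild type shift from both sides of 0 to below it.

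Against the AtNF-YB1 lines, 6 of 6 members were again lower in the CBF4 lines by estimate, with a narrow range from −0.69 for JAL31 to −0.44 for PYK10 and a median of −0.66. The median over all plant probe sets was 0, and 52.3% of the brighter probe sets were below 0. None passed (0.31% of plant probe sets did), and 2 of 6, JAL34 and JAL23, had an unadjusted limma p below 0.05 in the lower direction, against 4.46%. This comparison and that with wild type share the CBF4 arrays, so they are not 2 independent readings.

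With all arrays, the AtNF-YB1 lines lay on both sides of wild type by estimate. The estimates ran from −0.42 for JAL23 to 0.18 for PYK10, with 2 of 6 below 0 (49.6% of the brighter probe sets were) and a median of 0.03, and none passed (limma adjusted p = 1 for each, where 0.0155% of plant probe sets passed). None of the 6 had an unadjusted p below 0.05 either, which 1.88% of plant probe sets reached in the lower direction. For JAL23 alone the AtNF-YB1 and wild type arrays did not overlap, by a small margin, as for 1.86% of plant probe sets in that direction. The 95% confidence intervals were wide, at −0.47 to 0.59 for JAL34, −0.65 to 0.87 for JAL22 and −1.02 to 0.18 for JAL23. Without wild type replicate 3 all 6 estimates were below 0, from −0.48 to −0.12, and none passed (0.0516% of plant probe sets did). JAL34 was then at −0.24 ± 0.06 (limma adjusted p = 0.789) and was the 1 of 6 members with an unadjusted p below 0.05 in the lower direction, where 2.29% of plant probe sets had one.

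The 2 CBF4 lines ordered the members differently. JAL23 and JAL31 were lower in line 10 than in line 19, by −1.10 ± 0.33 and −0.67 ± 0.43, while JAL22, PYK10, JAL33 and JAL34 were higher in line 10, by 0.68 ± 0.41, 0.63 ± 0.43, 0.52 ± 0.32 and 0.24 ± 0.29. The arrays of the lines did not overlap for any of the 6 members, 2 in one direction and 4 in the other, where 10.8% and 9.71% of plant probe sets were so arranged. With all arrays none of these line differences passed (limma adjusted p = 1 for each, with 0.0155% of plant probe sets called), and 1 of 6, JAL23, had an unadjusted p below 0.05 in the lower direction, where 1.82% of plant probe sets did. Between AtNF-YB1 lines 3 and 6, with all arrays, the differences ran from −0.08 to 0.38, none passed (0.0258% of plant probe sets called) and none had an unadjusted p below 0.05. The arrays of line 3 were above those of line 6 for JAL33 and JAL34, 2 of 6 members, as for 13.3% of plant probe sets. Against wild type, line 3 was at −0.06 ± 0.22 for JAL33 and −0.13 ± 0.07 for JAL34 without replicate 3, and line 6 at −0.44 ± 0.22 and −0.35 ± 0.07, none of which passed.

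Across the 11 arrays, JAL22, JAL33 and JAL34 correlated with PYK10 by Pearson's r after adjustment, and none of the 5 lectins did by Spearman's rho. Whether the correlations differ between lectins was not tested. The permutations shuffled all 11 arrays freely, although arrays of a group share a genotype, so their p-values do not account for the groups. JAL22 correlated with PYK10 at Pearson r = 0.753 (permutation p = 0.0089, adjusted over 5 lectins 0.0266; Spearman rho = 0.738, permutation p = 0.0123, adjusted 0.0552). JAL33 gave r = 0.719 (permutation p = 0.0106, adjusted 0.0266; rho = 0.67, p = 0.0292, adjusted 0.0552) and JAL34 r = 0.672 (permutation p = 0.0297, adjusted 0.0495; rho = 0.656, p = 0.0331, adjusted 0.0552). JAL31 gave r = 0.275 (permutation p = 0.417, adjusted 0.521; rho = 0.282, p = 0.397) and JAL23 r = −0.08 (permutation p = 0.821, adjusted 0.821; rho = 0.05, p = 0.888).

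The correlations of JAL22, JAL33 and JAL34 with PYK10 were lower without the arrays whose PYK10 levels were farthest from the median. Without CBF4 line 19 replicate 1 and wild type replicate 1, r was 0.544, 0.453 and 0.477 for JAL22, JAL33 and JAL34, with exact permutation p = 0.132, 0.216 and 0.188 over 9 arrays. Leaving out extreme arrays narrows the range of PYK10, which can itself lower r. These values therefore cannot decide whether the relation depends on those arrays. With the levels centred within the 5 groups, r was 0.609, 0.638 and 0.616, given as a description without a test. Uncentred and without wild type replicate 3, r was 0.709, 0.69 and 0.628. All tests were two-sided.

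**Figure D3:**
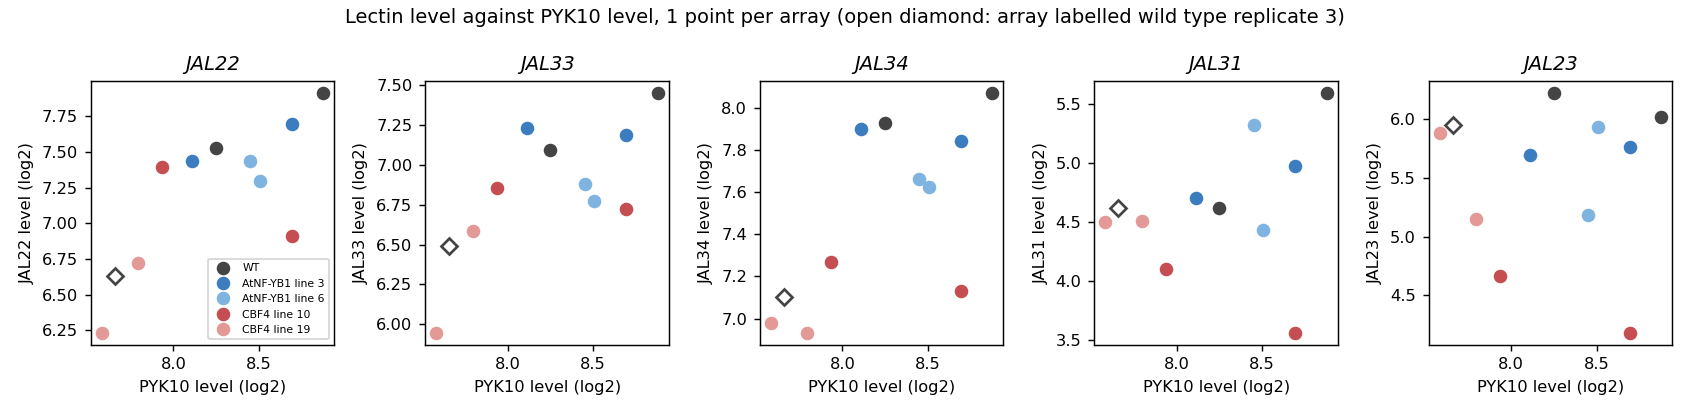
Level (log2) of each lectin against the level of PYK10, 1 point per array, coloured by group, with wild type replicate 3 as an open diamond. The points for JAL22, JAL33 and JAL34 scatter around a rising trend (r = 0.753, 0.719 and 0.672), with CBF4 line 10 replicate 1, at a PYK10 level of 8.69, low for all 3.

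The genes whose profile over the 11 arrays was most like that of PYK10, among 5152 other bright probe sets with a gene symbol, were AT4G36970 (r = 0.854), NAI2 (r = 0.844) and SKU5 (r = 0.805), where SKU5 is a membrane-anchored protein known for its role in directional root growth. JAL22 stood at position 15, JAL33 at 23, JAL34 at 55, JAL31 at 967 and JAL23 at 2893. The profiles most like JAL23 were those of AT3G47010 (r = 0.894), AT1G11330 (r = 0.882) and AT1G62500 (r = 0.853). Those most like JAL31 were AT5G10820 (r = 0.95), AT5G03610 (r = 0.945) and AT2G45180 (r = 0.893). These are the highest of many values over shared arrays and are given as a description.

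Of 12 other genes of ER bodies and the PYK10 complex, 4 were measured under a name, and 0 passed in either direction in any of the comparisons of constructs. NAI1, the basic helix-loop-helix factor that drives expression of ER body genes, gave 3.70 and 3.86 in CBF4 line 10 and 3.04 and 3.83 in line 19. In the AtNF-YB1 lines it gave 4.60, 5.31, 5.04 and 4.57, and in wild type 5.43, 5.08 and 3.74. All 4 CBF4 arrays were below all 4 AtNF-YB1 arrays, as for 2.48% of plant probe sets, and wild type replicate 3 was among the CBF4 arrays, as for JAL34. The NAI1 levels on the CBF4 arrays were below the median brightness of 4.02 log2.

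The NAI1 difference between CBF4 and wild type was −1.14 ± 0.45 (limma adjusted p = 0.766), and −1.64 ± 0.31 without wild type replicate 3 (adjusted p = 0.226). From the AtNF-YB1 lines it was −1.27 ± 0.41 (adjusted p = 0.462). NAI1 did not pass in any of these comparisons.

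NAI2, which is needed to form ER bodies, was at −0.40 ± 0.35 in the CBF4 lines against wild type (limma adjusted p = 1), and at −0.77 ± 0.27 without wild type replicate 3 (adjusted p = 0.591). It gave 6.35 and 5.52 in line 10 and 5.53 and 5.44 in line 19, and 6.41, 6.57 and 5.35 in wild type, where replicate 3 was the lowest of all arrays. BGLU21, a beta-glucosidase close to PYK10 in sequence and known from ER bodies of roots, was at −0.75 ± 0.30 (adjusted p = 0.772), with cross-hybridization to PYK10 not tested. AT1G54020, a GDSL lipase-like gene, was at or near the floor.

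**Figure D4:**
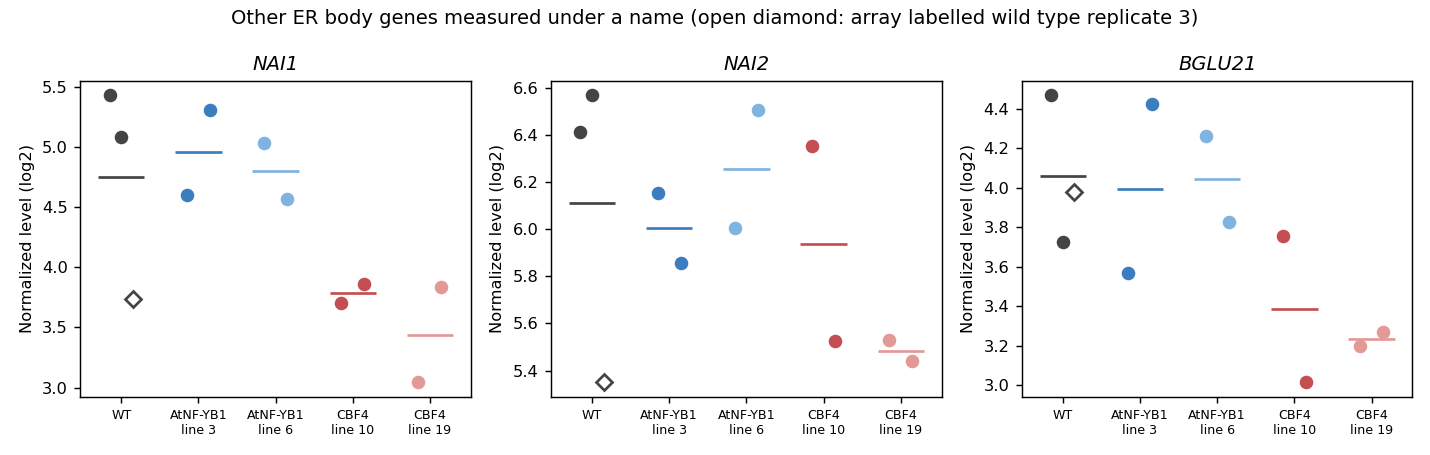
Normalized level (log2) of NAI1, NAI2 and BGLU21, 1 point per array, by wild type and line, with bars at the group means and wild type replicate 3 as an open diamond. For NAI1 the CBF4 arrays lie between 3.04 and 3.86, and the AtNF-YB1 arrays at 4.57 and above.

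The other beta-glucosidase genes with a BGLU symbol were mostly dim. Of 14 measured, 8 were at the floor on at least 1 array, 2 of them (BGLU24 and BGLU31) on all, and could show little or no decrease. Of the 6 never at the floor, 2 had an estimate below 0 in CBF4 against wild type. Of all 14, 4 were at or above the median brightness and 6 had an estimate below 0 in that comparison, with a median of 0.06 log2 and 0 calls. BGLU25 was on the opposite side from PYK10, at 0.43 ± 0.13 above wild type (limma adjusted p = 0.589) and 0.67 ± 0.12 above the AtNF-YB1 lines (adjusted p = 0.148). Its CBF4 arrays were above every wild type array, as for 2.3% of plant probe sets, and above every AtNF-YB1 array, as for 1.99%.

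Other defence genes related to ER bodies were mostly not analysed here under a name. Of 10 indole glucosinolate genes 1 was measured, UGT74B1, a glucosyltransferase of glucosinolate synthesis, at −0.44 ± 0.10 in CBF4 against AtNF-YB1 lines (limma adjusted p = 0.234) and −0.22 ± 0.11 against wild type (adjusted p = 0.896), the latter at −0.34 ± 0.08 without wild type replicate 3 (adjusted p = 0.318). Of 9 jasmonate genes 1 was measured, the defensin PDF1.2, at −1.49 ± 0.31 in the CBF4 lines against wild type (limma adjusted p = 0.265). It was at −1.26 ± 0.33 without wild type replicate 3 (limma adjusted p = 0.39). That array gave the highest PDF1.2 level of all, 9.93, against 9.25 and 9.24 on wild type replicates 1 and 2. None of the 12 myrosinase and specifier genes was measured under a name.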

How the data were processed

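RNA from 11 shoot pools was labelled with biotin, per the labels, and hybridized to Affymetrix GeneChips, 1 array each. The authors deposited linear intensity values per probe set, and 13.4% of the plant values were below 0. How probe cells were summarized, and whether arrays were scaled, is not given in the sources used here. Array medians differed, so the 19371 plant and 3 vector probe sets were quantile normalized (284 controls left out), values under the 20th percentile were raised to it (0.93 log2), and log2 was taken.

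Gene symbols came from the platform annotation and were matched by gene ID to RefSeq TAIR10.1 (11547 probe sets). The files name no genome build, so no coordinates are given. limma (lmFit, eBayes, two-sided) was fitted to 5 line groups without a block, with 6 residual degrees of freedom. A construct is the mean of its 2 lines. The fit was tested on simulated data. The members, lists and tests were chosen with earlier results of these data known. All members are described, with the 3 most alike probe sets for PYK10, JAL23 and JAL31. The correlations used 100000 permutations. The series text calls the replicates biological, and no label names a shared or separate culture, so p-values measure the spread between pools within a group. In this fit, differences between the 2 lines of a construct do not enter the SE of that construct. The number of arrays limits the precision. Tools were R 4.3.3, limma 3.58.1, Python 3.11.15 and matplotlib 3.10.9.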

Additional observations from a re-analysis of the deposited data

Results flagged for a closer look

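In the AtNF-YB1 lines, the 2 arrays of line 3 were above the wild type mean and the 2 arrays of line 6 below it for JAL33 and JAL34. The difference of line 3 from line 6 was 0.38 log2 (SE 0.32) for JAL33 and 0.23 log2 (SE 0.29) for JAL34, and neither difference passed the limma test of the lines (adjusted p = 1 for both). The arrangement rests on wild type replicate 3: without it line 3 was also below wild type, at −0.06 for JAL33 and −0.13 for JAL34. Within the 4 arrays of each construct no member had a single array far from the other 3, in 12 checks.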

How the results depend on the processing

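The 5 lectins in CBF4 against wild type, and all 6 members in CBF4 against AtNF-YB1, kept a negative estimate in each of 20 alternatives, 11 of which leave out 1 array. PYK10 in CBF4 against wild type ran from −0.56 to 0.049 with 1 array left out. In AtNF-YB1 against wild type the signs of small differences turned. On unscaled values JAL22, JAL33 and JAL34 were −0.065, −0.17 and −0.12 while the median of all probe sets shifted by −0.17. Of 20 same-numbered pairs of arrays, 7 had deviations from their group means correlated above 0.1 (r from −0.474 to 0.414). In a line of 2 arrays these deviations mirror each other, so both replicate numbers give the same r between lines. These values therefore cannot decide whether the replicate number pairs the arrays. A block of the replicate number removes wild type replicate 3 from the contrasts, since no other group has that number. With this replicate block JAL22, JAL33, JAL34 and PYK10 were −0.25, −0.25, −0.24 and −0.12. With 1 array left out JAL22 ran from −0.25 to 0.39, JAL31 from −0.31 to 0.24, JAL33 from −0.25 to 0.23, JAL34 from −0.24 to 0.24 and PYK10 from −0.12 to 0.49. Members passed under 2 settings only: JAL23 in line 10 with dim probe sets left out (1 member), and JAL34 without wild type replicate 3, so that with 1 array left out 0 to 1 members passed in CBF4, and in each CBF4 line, against wild type and in CBF4 against AtNF-YB1. Under the replicate block 0 members passed, the lowest adjusted p being 0.0644 for JAL34 in CBF4 against wild type. Over all plant probe sets, CBF4 against wild type gave 45 calls, with 5 unscaled, 13 under the replicate block, 194 with line as a random block and 25 to 130 with 1 array left out. In the random block fit the arrays of a line had a consensus correlation of −0.219. A negative value makes the SE of a construct smaller, so that fit is not a stricter one. AtNF-YB1 against wild type gave 3, with 0 unscaled, 5 with the higher floor, 1 with no floor, 0 when dim probe sets were omitted, 0 under the replicate block, 19 with line as a random block, 1 with lines pooled and 2 to 165 with 1 array left out, the highest without AtNF-YB1 line 3 replicate 1. CBF4 against AtNF-YB1 gave 60, with 9 unscaled, 21 under the replicate block, 142 with line as a random block and 44 to 240 with 1 array left out. The CBF4 lines gave 3, with 0 unscaled, 7 with the higher floor, 0 with no floor, 0 when dim probe sets were omitted, 0 under the replicate block and 0 to 98 with 1 array left out. The AtNF-YB1 lines gave 5, with 1, 8, 0, 0 and 1 for the same settings and 3 to 207 with 1 array left out. Unscaled, the correlation with PYK10 was 0.254 for JAL23 and 0.633 for JAL31 (adjusted permutation p = 0.0463), and with no floor it was 0.669 for JAL34 (adjusted permutation p = 0.0505). The cause of these shifts was not tested.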
